A study of Mus musculus with 12 samples.

Results

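The MHC class I antigen-presentation pathway was described through 10 genes out of the 31053 in the deposited matrix. They are the class I heavy chains H2-K1 and H2-D1, their light chain B2m, the peptide transporter subunits Tap1 and Tap2, the loading factor Tapbp, the immunoproteasome subunits Psmb8, Psmb9 and Psmb10, and the transactivator Nlrc5. They were chosen by name and function, and each matched 1 row of the matrix. The data are droplet scRNA-Seq of CD45+ enriched cells from subcutaneous MC38 tumors, a mouse colon adenocarcinoma line, in C57BL/6 mice. The labels hold 4 groups of 3 mice: EZH2i PF-06821497 at 100 mg/kg or vehicle, each given daily from day 1 (16 days) or from day 10 (7 days), with all tumors taken on day 17. The animals' age is not given in the sources used here. All 12 libraries were deposited in 1 matrix whose barcodes carry a library number from 1 to 12, and no label ties these numbers to the mice. EZH2i was not compared with vehicle here, and each library is described by its number, without a group and without tests between libraries.

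MHC class I molecules show peptides from the inside of a cell to CD8+ T cells. Proteasomes cut cytosolic proteins into peptides, and in the immunoproteasome Psmb9, Psmb10 and Psmb8 take the places of the constitutive catalytic subunits Psmb6, Psmb7 and Psmb5. The Tap1 and Tap2 heterodimer moves the peptides into the endoplasmic reticulum, where Tapbp (tapasin) bridges it to the heavy chain and B2m. Nlrc5 drives transcription of class I genes, and interferon-γ raises most of the pathway. Dendritic cells that take up tumor material can present it on class I, which is known as cross-presentation and is best described for type 1 conventional dendritic cells.

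Of the 10 genes, 7 lie on chromosome 17, 2 on chromosome 8 (Psmb10 and Nlrc5) and 1 on chromosome 2 (B2m). On GRCm38, H2-K1 is at chr17:33996017-34000347 on the minus strand, H2-D1 at chr17:35262730-35267499 on the plus strand and B2m at chr2:122147686-122153083 on the plus strand. Psmb9, Tap1, Psmb8 and Tap2 lie within chr17:34181987-34216321, in the class II region of the MHC. The RefSeq promoter table for GRCm38.p6 holds 8 of the 10 genes, all but Tap2 and Nlrc5. It lists 2 starts for H2-K1, of which 1 was used. The RefSeq starts used for H2-K1 and H2-D1 lie within the gene spans given above, which come from another annotation. The 150 bases before the start site are shown for the class I chains and B2m, which carry the same pair of motifs, and for Tap1, which has 1 of the pair there. Capitals mark TGACG (a part of the X2 box), CCAAT or its reverse complement ATTGG (the Y box core) and, in B2m, 1 form of the interferon response motif (GAAA, any 2 bases, GAAA). The windows are chr17:34000334-34000483 (minus strand) for H2-K1, chr17:35262944-35263093 (plus) for H2-D1, chr2:122147537-122147686 (plus) for B2m and chr17:34187406-34187555 (plus) for Tap1.
H2-K1: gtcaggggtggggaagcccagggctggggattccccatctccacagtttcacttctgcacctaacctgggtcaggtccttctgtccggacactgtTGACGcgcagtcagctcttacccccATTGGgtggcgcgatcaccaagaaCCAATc
H2-D1: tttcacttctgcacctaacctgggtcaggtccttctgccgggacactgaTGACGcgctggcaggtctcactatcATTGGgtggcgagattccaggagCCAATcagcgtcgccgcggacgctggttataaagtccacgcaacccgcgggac
B2m: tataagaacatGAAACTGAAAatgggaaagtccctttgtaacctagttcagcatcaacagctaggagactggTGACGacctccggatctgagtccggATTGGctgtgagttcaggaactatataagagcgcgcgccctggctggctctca
Tap1: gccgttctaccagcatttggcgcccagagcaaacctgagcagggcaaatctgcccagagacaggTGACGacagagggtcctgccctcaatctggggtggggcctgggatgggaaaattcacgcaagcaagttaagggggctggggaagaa
In H2-K1, H2-D1 and B2m the first base of TGACG lay 25 bases before the first base of ATTGG, with 20 bases between them. Counting 280-base windows (250 bases before the start to 30 after it, both strands), 31 of the 32851 promoters of the table, or 0.0944%, held the pair at this spacing, which was looked for after these sequences were seen. TGACG alone was in 5 of the 8 windows (H2-K1, H2-D1, B2m, Tap1 and Psmb9), against 19.9% of all promoters, and CCAAT in 6 of 8 (the same genes and Tapbp), against 36.1%. That exact form of the interferon response motif was in 1 of 8, in B2m, against 3.28% of all promoters. Forms that differ from it by a base were not searched, so its lack in a window says only that these letters are not there. TTCNNNGAA, the STAT motif, was also in 1 of 8, in Psmb8, against 7.83%. The windows of H2-K1 and H2-D1 were identical at 200 of 222 aligned positions (90.1%). Tap1 and Psmb9 start 226 bases apart on opposite strands, so their windows share 275 bases and count as 1 stretch of DNA.

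Of the deposited barcodes, 128912 (91.7%) were kept, those whose gene number lay above 200 and below 5000 and whose mitochondrial UMIs did not exceed 10%. Lineage marker UMIs placed 81865 of them (63.5%) in exactly 1 of 18 cell classes, of which 70132 were macrophages. Levels are given as CPM, that is counts per 1000000 UMIs, summed over the cells of a class in 1 library, with the median and range over the libraries that held at least 10 cells of the class. In 13 classes at least 5 libraries did so, and the other 5 classes were too sparse to rank. The libraries held 3330 to 37413 kept cells with medians of 2291 to 15081 UMIs per cell. Library 6 was the largest and shallowest, and library 4 held few lymphoid cells. UMIs of Y-linked genes were present at 127.8 to 209.4 CPM in libraries 1 to 6 and absent from libraries 7 to 12, while the study's methods name female mice. Of the barcode sequences, 1.63% occurred in more than 1 library. C1qa, a complement gene of macrophages, was at 77.3 to 194.0 CPM in the 12 other ranked classes and at 5928 CPM in macrophages, that is 1.30% to 3.27%. The gates themselves limited C1q UMIs in those classes, so these levels do not measure the RNA of other cells in them. Cd74 had a median of 1007 CPM in CD8 T cells, 3575 CPM in CD4 T cells and 6437 CPM in macrophages.

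All 10 genes were detected in every ranked class, and the sum of the 10 differed less between classes than the single genes did. The sum was highest in mature dendritic cells, at a median of 12542 CPM, and lowest in B cells, at 7367 CPM, which is a 1.70-fold range. H2-K1, H2-D1 and B2m made up most of it, so it says little about the other genes. In macrophages these 3 had medians of 2450, 2308 and 3910 CPM, and the sum 10457 CPM. Psmb10 spanned 8.89-fold, Psmb9 8.05-fold and Psmb8 6.48-fold between the highest and the lowest class. H2-D1 spanned 2.29-fold, B2m 2.55-fold, H2-K1 2.84-fold and Tap1 2.93-fold. For every one of the 10 genes, all 12 pairs of neighbouring classes overlapped in their library ranges. These ranges do not pair the classes by library, which the comparisons within libraries do.

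**Figure D1:**
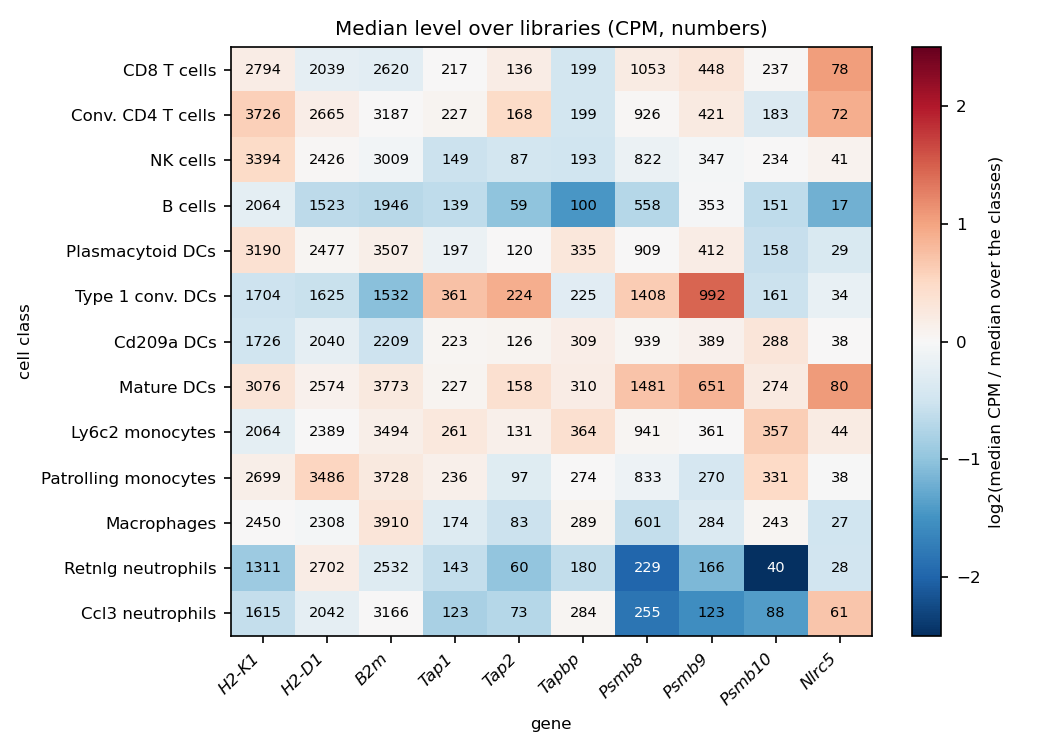
Median level over libraries of the 10 genes (columns) in the 13 ranked cell classes (rows), with the CPM printed in each cell and the colour giving log2 of the median CPM over the median of the classes for that gene. The neutrophil rows are lowest for the 3 immunoproteasome genes (Psmb10 at 40.1 CPM in Retnlg neutrophils), and type 1 conventional dendritic cells combine the highest Psmb9 (992 CPM) with the lowest B2m (1532 CPM).

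H2-K1, 1 of the 2 classical class I heavy chains of this strain, had its highest medians in conventional CD4 T cells and NK cells. Conventional CD4 T cells had a median of 3726 CPM (2748 to 4437 over 10 libraries) and NK cells 3394 CPM (2654 to 5669, 10 libraries). CD8 T cells had 2794 CPM (2476 to 4007, 11 libraries), below the median of mature dendritic cells. Retnlg neutrophils had the lowest level, with 1311 CPM (918 to 1900, 10 libraries), and all their libraries lay below every library of the CD4 T cells. Type 1 conventional dendritic cells were near the bottom, at 1704 CPM (1157 to 1914, 12 libraries). Mature dendritic cells, which carry Ccr7, the receptor for migration to lymph nodes, had 3076 CPM (2688 to 3618, 12 libraries), and the 2 ranges did not overlap.

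H2-D1, the other heavy chain, followed a different order. Patrolling monocytes were highest, at 3486 CPM (2879 to 3885, 5 libraries), and B cells lowest, at 1523 CPM (1124 to 2185, 9 libraries). Retnlg neutrophils, last for H2-K1, were second for H2-D1 with a median of 2702 CPM, over a wide range of 1203 to 3879 CPM. The ratio of H2-K1 to H2-D1 UMIs brings out this contrast, since a 3′ UMI counts 1 molecule whatever its length. H2-K1 exceeded H2-D1 in 11 of 11 libraries of CD8 T cells (median ratio 1.40), in 10 of 10 of CD4 T cells (1.43) and in 10 of 10 of NK cells (1.49). In Retnlg neutrophils H2-D1 exceeded H2-K1 in 10 of 10 libraries (median ratio 0.505, highest 0.887), and in patrolling monocytes in 5 of 5 (0.774). Macrophages lay near parity, with a median ratio of 1.07 and 10 of 12 libraries above 1. None of the 411 windows of 90 bases in the last 500 bases of the longest annotated transcript of H2-K1 or of H2-D1 occurred in a transcript of another of the 45 H2 genes in the annotation, so exact 90-base reads from there would map to 1 gene.

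B2m, the light chain of the class I molecules, was highest in macrophages, at 3910 CPM (2859 to 6000, 12 libraries). Mature dendritic cells followed with 3773 CPM and patrolling monocytes with 3728 CPM. Type 1 conventional dendritic cells were lowest, at 1532 CPM, and their highest library (2165 CPM) lay below the lowest library of macrophages. B cells were next, at 1946 CPM.

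**Figure D2:**
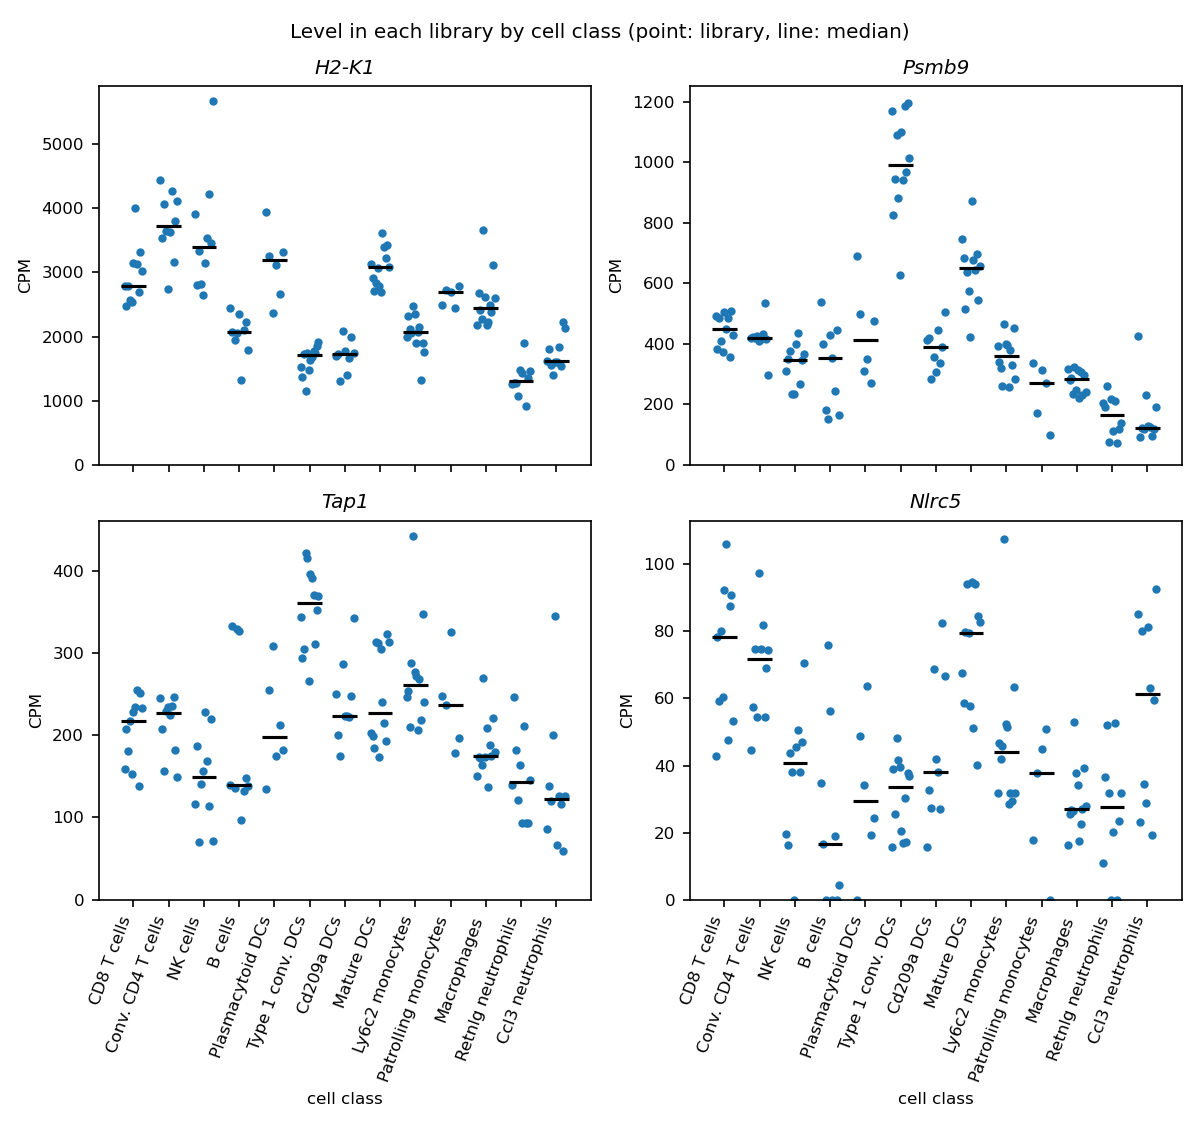
Level in CPM of H2-K1, Psmb9, Tap1 and Nlrc5 in each library (points) by cell class, with the median as a line. For Psmb9 the points of type 1 conventional dendritic cells (629 to 1196 CPM) stand above most others, while for H2-K1 the same cells lie at 1157 to 1914 CPM and CD4 T cells at 2748 to 4437 CPM.

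The transporter genes Tap1 and Tap2 were both highest in type 1 conventional dendritic cells. Tap1 was at 361 CPM there (267 to 422, 12 libraries), and Ly6c2 monocytes, the next class, had 261 CPM (207 to 442). The lowest level was 123 CPM, in Ccl3 neutrophils. Tap2 was at 224 CPM in type 1 conventional dendritic cells (133 to 281) and 168 CPM in CD4 T cells, the second class. B cells had the lowest median, 59.4 CPM, with libraries from 0 to 200 CPM. Tapbp had yet another order, led by Ly6c2 monocytes at 364 CPM (288 to 648) and plasmacytoid dendritic cells at 335 CPM. CD8 and CD4 T cells had 199 CPM each, and B cells were last at 99.7 CPM (59.4 to 330).

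The immunoproteasome genes had lower medians in neutrophils than in dendritic cells, and for Psmb8 the library ranges did not overlap. Psmb8 was at 1481 CPM in mature dendritic cells (879 to 1877) and at 1408 CPM in type 1 conventional dendritic cells (967 to 1830). In Retnlg neutrophils it was at 229 CPM (121 to 463) and in Ccl3 neutrophils at 255 CPM (120 to 505), so no neutrophil library reached either dendritic class. Psmb9 was at 992 CPM in type 1 conventional dendritic cells (629 to 1196), and the second class, mature dendritic cells, had 651 CPM (423 to 874). Psmb10 was led by Ly6c2 monocytes, at 357 CPM (180 to 477), and patrolling monocytes, at 331 CPM. Type 1 conventional dendritic cells, first for Psmb9, had 161 CPM of Psmb10 (94.4 to 185), and Retnlg neutrophils 40.1 CPM (15.6 to 194), so these ranges overlapped. For Psmb9, Ccl3 neutrophils reached 427 CPM in 1 library, above the lowest library of mature dendritic cells. That library held only 10 Ccl3 neutrophils, and their other libraries lay at 230 CPM or below.

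The share of the immunoproteasome among the UMIs of all 6 catalytic subunits does not depend on the total of a library. It was 81.5% in mature dendritic cells, pooled over libraries (exact binomial 95% interval 80.8% to 82.2%), with libraries from 77.7% to 84.4%. Type 1 conventional dendritic cells had 77.2% (76.5% to 77.9%) and CD8 T cells 75.2% (74.7% to 75.7%). Macrophages had 63.5% (63.4% to 63.6%), with libraries from 56.8% to 68.1%, all below every library of mature dendritic cells. Retnlg neutrophils had 69.97% (67.5% to 72.3%), so that their low immunoproteasome level went with a low level of the constitutive subunits, whose sum was at a median of 188 CPM against 668 CPM in macrophages. The intervals here cover counting error only.

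**Figure D3:**
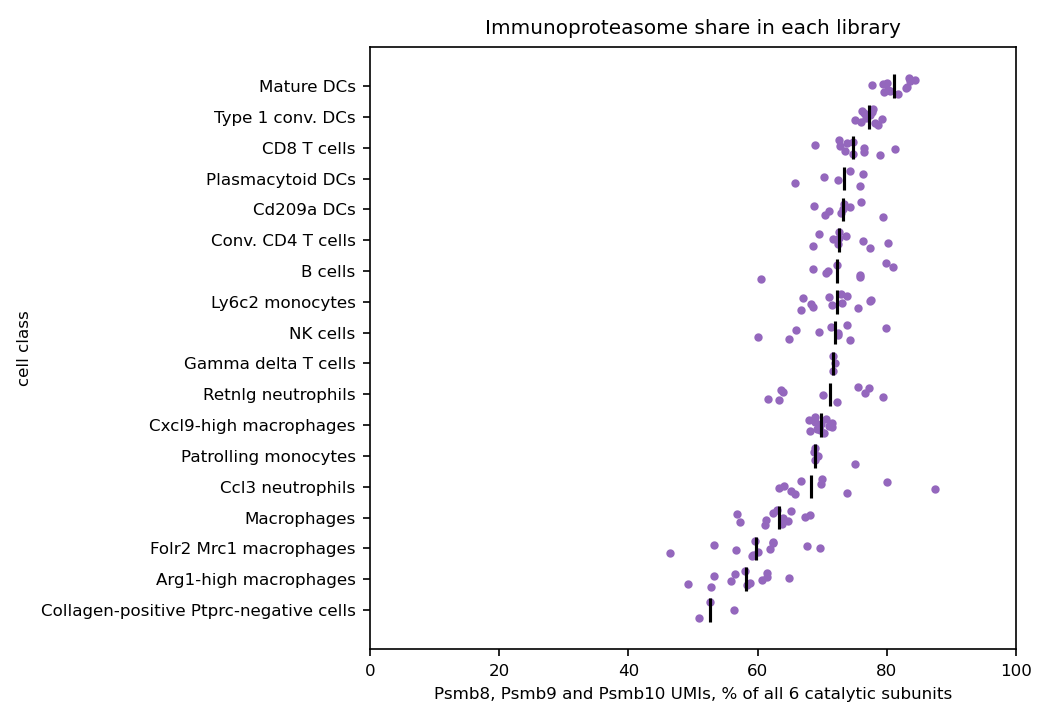
Share of Psmb8, Psmb9 and Psmb10 among the UMIs of the 6 catalytic subunits, in percent, for each library (points) of the classes and macrophage subsets that had at least 3 libraries, with the median as a line. Mature dendritic cells lie at 77.7% to 84.4%, and Arg1-high macrophages at 49.2% to 64.9%.

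Nlrc5 was the least abundant gene of the 10. Mature dendritic cells had 79.7 CPM (40.1 to 94.8, 12 libraries), CD8 T cells 78.4 CPM (42.8 to 106, 11 libraries) and CD4 T cells 71.9 CPM (44.6 to 97.4, 10 libraries), and these 3 classes overlapped almost wholly. Ccl3 neutrophils had 61.4 CPM (19.4 to 92.7). Macrophages were second from the bottom with 26.9 CPM (16.2 to 52.9), and B cells last with 16.6 CPM (0 to 76.1). An Nlrc5 UMI was found in 27.5% of CD8 T cells, 26.0% of mature dendritic cells, 19.2% of macrophages and 5.78% of Retnlg neutrophils, at median depths of 3802, 3905, 6603 and 1702 UMIs. With each cell thinned to 1000 UMIs, the shares were 8.46%, 7.51%, 3.25% and 2.07%, after 99, 23, 128 and 320 shallower cells were left out. No class is known to lack class I genes, so no share of free RNA could be set for them.

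The order of the classes kept most of its ends when ribosomal protein and mitochondrial UMIs were taken out of the total. These UMIs made up 37.5% of the total in B cells, 33.0% in CD8 T cells and 20.9% in macrophages, but 5.27% in Retnlg neutrophils. Without them the highest class was the same for 8 of the 10 genes. H2-K1 was then highest in NK cells (5203 CPM, with 5100 CPM in CD4 T cells) and Nlrc5 in CD8 T cells (119 CPM, with 105 CPM in mature dendritic cells). The lowest class was also the same for 8 of 10, with H2-D1 then lowest in type 1 conventional dendritic cells and Tap2 in Retnlg neutrophils. The sum of the 10 genes was then lowest in Retnlg neutrophils (7872 CPM) and no longer in B cells (11443 CPM).

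Within libraries, the 2 dendritic cell classes found in all 12 differed in both directions. Against mature dendritic cells, type 1 conventional dendritic cells had higher Tap1 and Psmb9 in 12 of 12 libraries. H2-K1, H2-D1, B2m, Tapbp, Psmb10 and Nlrc5 were lower in 12 of 12. Of all 7409 genes compared, 13.9% were higher and 13.1% lower in every library, against 2 and 6 of the 10 members. The 2 higher members were near the share of all genes, so their number was not set apart from it. The median log2 difference (type 1 minus mature) was -1.18 for B2m (-1.46 to -0.84 over libraries), -0.90 for H2-K1 (-1.29 to -0.65) and -1.19 for Nlrc5 (-2.21 to -0.55). It was 0.59 for Tap1 (0.12 to 0.79) and 0.62 for Psmb9 (0.27 to 1.14). Psmb8 lay at -0.01, higher in 5 libraries and lower in 7. Tap2 was higher in 11 of 12.
Of the 7 genes for loading and trimming, the chaperones Calr and Pdia3 were higher in every library and Tapbpl, a tapasin homologue, and Psme2, a proteasome activator subunit, were lower. Psme2 had a median of 427 CPM in type 1 conventional and 1374 CPM in mature dendritic cells. All 3 class II genes of the contrast list (Ciita, Cd74 and H2-Ab1) were higher in every library, with H2-Ab1 at 8565 and 1132 CPM. Of the 14 interferon signalling genes compared, 3 were higher (Ifngr1, Irf9 and Cxcl9) and 5 lower, among them Jak1, Jak2, Irf1 and Gbp2.

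Against Cd209a dendritic cells, over the 9 libraries that held both, type 1 conventional dendritic cells had higher Tap1, Psmb8 and Psmb9 in 9 of 9, where 7.55% of 7485 genes were higher. H2-D1, B2m and Psmb10 were lower in 9 of 9, where 8.23% of genes were lower. With lineage gates of 4 UMIs, 1 member in place of 3 was lower in every library. Psmb9 differed most, at 1091 against 389 CPM in the median and by 1.31 on the log2 scale (0.98 to 1.94). For Psmb10 the medians were 157 and 288 CPM. H2-K1 was lower in 6 of 9 libraries, with medians of 1628 and 1726 CPM.

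Macrophages were split by Cxcl9, an interferon-γ-induced chemokine, and Arg1, an arginase linked to suppressive macrophages, neither of which is among the 10 genes. The 4810 Cxcl9-high cells (at least 5 Cxcl9 UMIs and no Arg1 UMI) had more of 9 of the 10 genes than the 12134 Arg1-high cells (the converse) in every one of 12 libraries. H2-D1 was higher in 11 of 12, library 4 being the exception at -0.04. Over all 7438 genes compared, 7.35% were higher and 10.6% lower in every library. The median over the members of the log2 difference was 0.61, against -0.02 over all genes. The 2 subsets were of like depth, with a median over libraries of 9391 and 9228 UMIs per cell.

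The transporter and immunoproteasome genes differed more than the chains. Tap2 was at 118 CPM in Cxcl9-high (87.9 to 148) and 61.1 CPM in Arg1-high macrophages (51.7 to 88.2), a log2 difference of 0.90 (0.58 to 1.41). Psmb10 was at 352 CPM (244 to 433) and 185 CPM (148 to 237), and Psmb9 at 377 CPM (299 to 439) and 229 CPM (172 to 273). For these 2 genes the ranges of the subsets did not overlap. Nlrc5 was at 38.6 and 22.4 CPM, with a log2 difference of 0.76 (0.43 to 0.96), and Tap1 at 240 and 149 CPM, with 0.62 (0.33 to 1.05). H2-K1 differed by 0.40 (0.18 to 0.59), H2-D1 by 0.25 (-0.04 to 0.44) and B2m by 0.18 (0.03 to 0.34). The immunoproteasome share was 69.7% in Cxcl9-high (68.0% to 71.6% over libraries) and 57.7% in Arg1-high macrophages (49.2% to 64.9%), again without overlap.

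**Figure D4:**
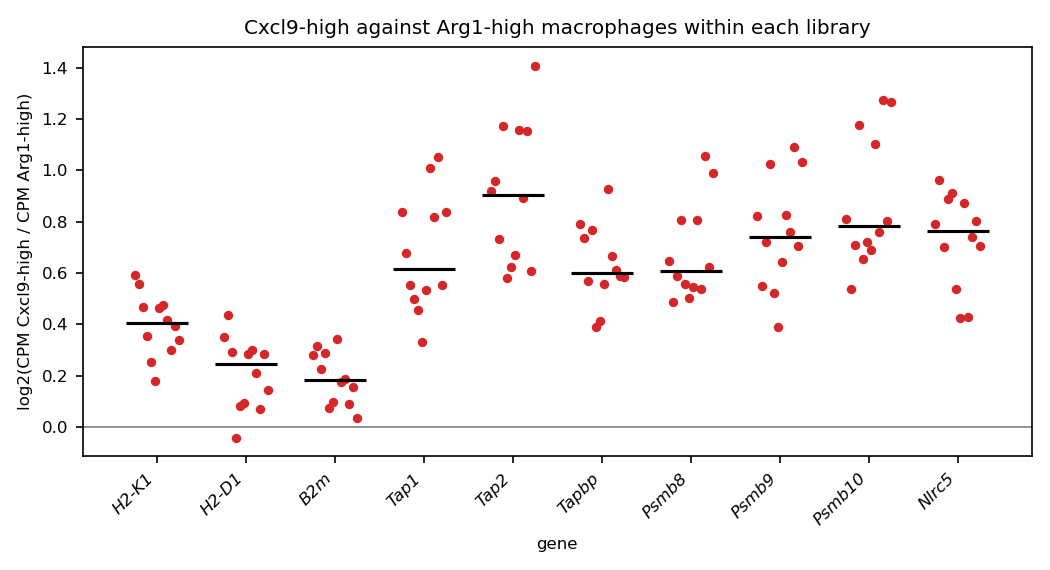
Log2 ratio of CPM in Cxcl9-high over Arg1-high macrophages for each of the 10 genes, with 1 point per library, the median as a black line and 0 as a grey line. All points but 1 (H2-D1 in library 4, at -0.04) lie above 0, and the medians run from 0.18 (B2m) to 0.90 (Tap2).

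Of the 14 interferon signalling genes compared between these subsets, 7 were higher in every library and 0 lower. Among the 7 were Ifngr2, Stat2, Irf8, Gbp2, Cxcl10 and Cxcl9, the last being part of the gate. Gbp2, an interferon-induced GTPase, had medians of 407 and 66.0 CPM. Of the 7 loading and trimming genes, 4 were higher (Pdia3, Tapbpl, Psme1 and Psme2) and 0 lower, and of the 3 constitutive subunits 0 were higher and 0 lower. Among 7 other class I genes, H2-Q7, H2-T22 and H2-T23 were higher in every library and Mr1, which presents vitamin metabolites, was lower. All 3 class II genes were higher. None of the 3 PRC2 genes (Ezh2, Eed and Suz12) was higher or lower in every library, and Ezh2, the target of the inhibitor, had medians of 50.1 and 37.8 CPM.

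Ly6c2 monocytes, which can become macrophages in tumors, had higher Tap1, Tap2, Tapbp, Psmb8, Psmb9 and Nlrc5 than macrophages in 12 of 12 libraries and lower H2-K1 in 12 of 12. In this comparison 12% of 7533 genes were higher and 19.2% lower in every library, so the 1 lower member of 10 was not set apart from all genes. The log2 difference was 0.62 for Tap2 (0.35 to 0.95), 0.57 for Tap1 (0.28 to 0.81) and 0.67 for Nlrc5 (0.13 to 1.02). For H2-K1 it was -0.20 (-0.86 to -0.10), from medians of 2064 and 2450 CPM. B2m was higher in 4 and lower in 8 libraries. Of 14 interferon signalling genes, 8 were higher in every library, among them Ifngr1, Jak2, Stat2, Irf1, Irf2, Socs1 and Gbp2, and 0 lower.

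CD8 T cells, the cells that read class I, had higher Tap2, Psmb8, Psmb9 and Nlrc5 than macrophages in 11 of 11 libraries and lower B2m in 11 of 11. The background was high here, at 23.7% of 8274 genes higher and 25.7% lower, so these 4 and 1 of 10 were not set apart from it. Tapbp was lower in 10 of 11, and without library 8 it would count as lower in all, which makes 2. Nlrc5 had medians of 78.4 and 27.0 CPM in this comparison. Against CD4 T cells, over 10 libraries, CD8 T cells had lower H2-K1, H2-D1 and B2m in 10 of 10, where 4.32% of 7804 genes were lower. The log2 differences were -0.32 for H2-K1 (-0.67 to -0.01), -0.30 for H2-D1 and -0.20 for B2m. Some genes of antigen-presenting and myeloid cells were also at lower levels in the CD8 T cells. Cd74, the invariant chain of class II, had a median over libraries of 1007 CPM there and 3575 CPM in CD4 T cells, H2-Ab1, a class II chain, had 603 and 1813 CPM. Tyrobp, a myeloid and NK cell adaptor, had 139 and 310 CPM over the pooled cells of each class. Their part in the result was not tested. None of the 10 genes was higher in every library, where 3.63% of genes were.

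B cells had lower H2-K1, H2-D1, B2m, Psmb8 and Nlrc5 than CD8 T cells in 8 of 8 libraries, with 0 genes of the 10 higher. With lineage gates of 4 UMIs, 3 members in place of 5 were lower in every library. Over 7627 genes, 9.73% were lower and 3.85% higher in every library. Psmb8 was at 558 and 980 CPM. Nlrc5 was at 0 in some B cell libraries, so no fold is given for it. B cells were shallow, with a median of 1290 UMIs per cell, and their class II genes Ciita, Cd74 and H2-Ab1 were all higher than in CD8 T cells in every library.

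Retnlg neutrophils had lower H2-K1, Tap1, Tapbp, Psmb8, Psmb9 and Psmb10 than Ly6c2 monocytes in 10 of 10 libraries, and 0 of the 10 genes higher in all. In this comparison 27.8% of 6944 genes were lower and 7.82% higher, and the median log2 difference was -0.84 over the members and -0.96 over all genes. Psmb10 lay furthest below, at 40.1 against 357 CPM (log2 difference from -4.85 to -1.25), and Psmb8 was at 229 against 968 CPM. H2-D1 was higher in 6 and lower in 4 libraries.

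Tumor cells could not be described among the kept cells. A UMI of Krt8 or Krt18, the keratins that would mark MC38 cells, was found in 158 kept cells. Of these, 18 had no Ptprc (CD45) UMI, and 0 of the 18 had 2 keratin UMIs. The 17 kept cells with at least 2 keratin UMIs all had a Ptprc UMI. Barcodes removed by the limits on genes and mitochondrial UMIs were not part of these counts. Of the 18 barcodes, 8 had a UMI of Csf1r or Adgre1, which are macrophage genes. Their pooled levels were 2554 CPM for H2-K1 (exact Poisson 95% interval 2220 to 2923) and 3830 CPM for B2m (3419 to 4278), and the counts for Tap2 and Nlrc5 were 6 and 5 UMIs. In their place, the 113 cells with at least 3 UMIs of Col1a2, Col3a1 and Dcn and no Ptprc UMI were set against macrophages, in the 3 libraries (1, 5 and 6) that held at least 10 of them. Fibroblasts and MC38 cells cannot be told apart in this gate, which held 0 UMIs of Krt8 and Krt18. It carried 369 CPM of Rhox5, a homeobox gene often expressed in tumor lines, against 5.25 CPM in macrophages.

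These collagen-positive cells had less of 8 of the 10 genes than macrophages in 3 of 3 libraries, where 30.1% of 8862 genes were lower and 40.2% higher. With only 3 libraries this background is high. The median log2 difference was -0.86 over the members and 0.21 over all genes. B2m was at 1111, 1731 and 1382 CPM in libraries 1, 5 and 6, and at 2859, 6000 and 4318 CPM in the macrophages of the same libraries. H2-K1 was at 1434, 1726 and 1328 CPM, against 2178, 3658 and 2623 CPM. Nlrc5 was at 4.04, 18.9 and 5.97 CPM, from 13 UMIs in all libraries together. Psmb8 and Psmb10 were lower in 2 of 3. Tap2, counted among the 8, differed by only -0.03 and -0.01 on the log2 scale in libraries 1 and 6, and by -0.34 in library 5. The immunoproteasome share was 52.5% (50.5% to 54.5%), and in each of the 3 libraries it lay below every library of Cxcl9-high macrophages. The 3 libraries, at 50.9% to 56.3%, lay within the ranges over all libraries of the Arg1-high (49.2% to 64.9%) and Folr2 Mrc1 macrophages (46.4% to 69.6%). Within libraries 1, 5 and 6, however, the collagen-positive cells had 52.6%, 56.3% and 50.9%. Arg1-high macrophages of these libraries had 58.0%, 61.4% and 64.9%, and Folr2 Mrc1 macrophages 59.6%, 67.7% and 69.6%. The collagen-positive cells were thus lower than both in 3 of 3. In these cells C1qa was at 3.07% and Tyrobp at 4.36% of the macrophage level. The gate took no Ptprc UMI and at most 1 UMI of Csf1r and Adgre1, so these levels do not measure the macrophage RNA in them. The sum of the 10 genes was 53.6% of the macrophage sum over the 113 cells. It was also 53.6%, without an interval, in the 14 cells with no UMI of Tyrobp, C1qa, C1qb, C1qc, Cd3e and Cd79a. Other leukocyte genes, such as Lyz2 and Cd52, were not required to be absent from these 14. The part of macrophage RNA in these levels was not tested.

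Across libraries, the members did not move as a block. In macrophages, H2-D1 spanned 1.34-fold between the lowest and the highest library, Psmb9 1.45-fold, B2m 2.099-fold and Nlrc5 3.26-fold. Library 5 was the highest for 7 of the 10 genes (all but H2-D1, Psmb8 and Psmb10), with B2m at 6000 CPM and Nlrc5 at 52.9 CPM against medians of 3910 and 26.9. Library 1 was lowest for 4 of them (H2-K1, B2m, Tapbp and Nlrc5) and highest for 2 others, Psmb8 (883 CPM) and Psmb10 (299 CPM). In Ly6c2 monocytes library 5 was again highest for 7 of 10, with Nlrc5 at 108 CPM against a median of 43.9. In CD8 T cells it was highest for 1, and library 8 for 5. In mature and type 1 conventional dendritic cells the shallow library 6 was lowest for 5 of 10 each.

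**Figure D5:**
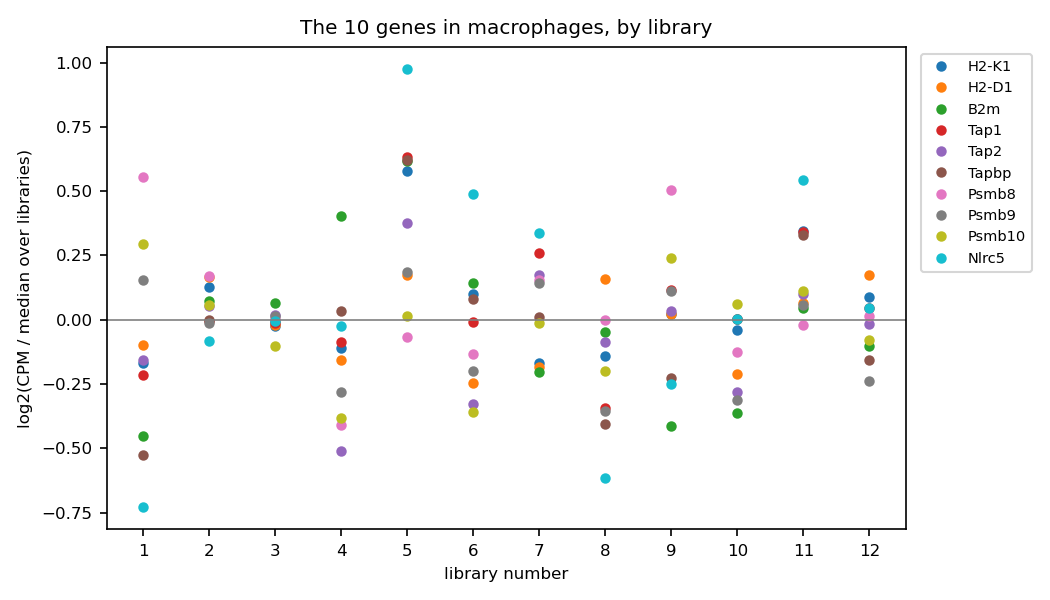
The 10 genes in macrophages by library number, as log2 of the CPM over the median of the 12 libraries, with 1 colour per gene. In library 5, 9 of the 10 points lie above 0 and Nlrc5 is at 52.9 CPM, while in library 1 Psmb8 lies above and Nlrc5, B2m and Tapbp below.

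Over the 13 ranked classes, the members were alike to different degrees. The genes most like each of 4 members were named by Pearson's r of log2(median CPM + 1) over the 13 classes, among 9787 genes, as a description. The classes share libraries. For Tap1 they were Ccdc12 (r = 0.90), Tap2 (0.89) and Pomp (0.89), a proteasome assembly factor. For Psmb8 they were Psme1 (0.96), a proteasome activator subunit, Cdc14a (0.95) and Fam96b (0.95). For H2-K1 they were Mien1 (0.95), Zc3h13 (0.90) and Fam53b (0.89), and for Nlrc5 the first was Gpank1 (0.87). Among the members alone, Psmb8 was most like Psmb9 (0.91), followed by Tap2 (0.83) and Tap1 (0.80). H2-K1 was most like Psmb8 (0.57) and Psmb10 (0.55), and had 0.52 with B2m, 0.38 with H2-D1 and 0.15 with Tap1. Nlrc5 was most like Tap2 (0.53), and had 0.38 with H2-K1, 0.35 with B2m and 0.13 with Psmb9. Among all 9787 genes, Psmb9 ranked 50 for Psmb8, and Tap2 ranked 450 for Nlrc5. For H2-K1, Psmb8 ranked 2281, Psmb10 2560, B2m 3066 and H2-D1 4677, so that many genes outside the list were more like it.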

How the data were processed

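The genes, lists and comparisons were chosen with earlier results of these data known. The authors deposited 1 pooled matrix of UMI counts (31053 genes, 140639 barcodes), not normalized. Per the labels' processing notes they used Cell Ranger 2.1.1, mm10 and Seurat, while the matrix header names software 3.0.2, and this difference was not resolved. The libraries were made with the 10x 3′ kit v3. Barcodes outside 200 to 5000 genes or above 10% mitochondrial UMIs were removed. Most classes were gated on at least 2 UMIs of lineage genes and at most 1 UMI of most foreign lineages. Macrophages also needed at least 5 C1q UMIs, and mature dendritic cells at least 4 UMIs of their markers. Conventional CD4 T cells needed 2 Cd3 UMIs but only 1 Cd4 UMI, and Foxp3-positive T cells 1 Foxp3 UMI. Lymphoid and dendritic classes could hold up to 10 C1q UMIs, monocytes and neutrophils up to 4. Cd209a dendritic cells had no limit on Csf1r and Adgre1. The UMI limits were set after marker counts were seen and before the 10 genes were. No doublet caller was run: 2276 barcodes with at least 2 Cd3 and 2 Csf1r or Adgre1 UMIs, and 33 that passed more than 1 gate, were left out. The total count per library was 21649947 to 158760328 UMIs, which limits low genes and small classes.

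A class counted in a library from 10 cells. Within libraries, log2 CPM differences were counted as higher or lower in every library. The same was done for all genes at 10 CPM or more in at least 1 of the 2 classes, as background. This background was not matched for level. Genes near 10 CPM have few UMIs in small classes and keep 1 direction in every library less readily than abundant members. Since no label ties libraries to mice, no test was run, and the planned edgeR comparison of EZH2i with vehicle was not made. The scripts were tested on simulated data. All 10 genes are reported, with fixed lists of other pathway genes. The 3 most alike genes were taken by Pearson's r among genes at 10 CPM or more in a class. Some genes that these rules name are not reported here. Positions are from GENCODE M21 (GRCm38) and promoters from RefSeq (GRCm38.p6). Tools were pandas 2.3.3, numpy 2.4.6, matplotlib 3.10.9, Biopython 1.88 and scipy 1.17.1 under Python 3.11.15. Alternatives were other limits on cells, gates of 4 UMIs, per-cell means, another total, pooled libraries, cells without the top 10% of UMIs, each library left out and thinned cells.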

Additional observations from a re-analysis of the deposited data

How the results depend on the processing

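With a mitochondrial limit of 5%, the sum of the 10 genes was 5808 CPM in B cells and 10544 CPM in plasmacytoid dendritic cells, their immunoproteasome shares were 61.0% and 60.4%, and the members lower in CD8 T cells than in macrophages were 2. With gates of 4 UMIs, the share in patrolling monocytes was 64.0%, and 1 member was lower in type 1 conventional than in Cd209a dendritic cells and 3 in B than in CD8 T cells. The mean of per-cell values gave a sum of 13159 CPM in CD4 T cells. Without ribosomal protein and mitochondrial UMIs in the total, every sum rose by construction, to 14809 CPM in CD8 T cells, 16278 in CD4 T cells, 15641 in NK cells, 11443 in B cells, 15014 in plasmacytoid, 11253 in type 1 conventional, 11040 in Cd209a and 16442 in mature dendritic cells, 12997 in Ly6c2 monocytes, 14938 in patrolling monocytes and 13168 in macrophages. With this total the sum was higher in CD8 T cells than in macrophages and in B cells than in type 1 conventional dendritic cells, the opposite of the order reported. H2-D1 (3115 and 2925 CPM) and Psmb10 (366 and 302 CPM) turned likewise between CD8 T cells and macrophages. In libraries 1 to 6 alone (chosen, like the next setting, after the Y-linked UMIs were seen) 4 members were lower in CD8 T cells than in macrophages. In libraries 7 to 12 alone, 9 were lower in B than in CD8 T cells, 1 was higher in CD8 than in CD4 T cells, and the immunoproteasome share in CD4 T cells was 76.3%. Fewer libraries make such counts easier to reach, and other causes were not tested. Leaving out each library in turn gave 1 to 2 members lower in CD8 T cells than in macrophages, the 2 without library 8. With the 12 libraries in turn left out, the members higher in Cxcl9-high macrophages were 9 to 10. With cells thinned to 1000 UMIs, the share of type 1 conventional dendritic cells with an Nlrc5 UMI was 3.61%, and the others were 8.46% (CD8 T cells), 7.51% (mature dendritic cells), 3.25% (macrophages) and 2.07% (Retnlg neutrophils). At 500 UMIs these shares were 1.29%, 4.13%, 2.75%, 1.67% and 1.23%. Removing the gene and mitochondrial limits, pooling libraries, leaving out the top 10% of cells or libraries 4 and 6, and Cxcl9 and Arg1 gates of 3 UMIs left all values within their spread over libraries and all counts near those reported. The keratin gate of at least 2 keratin UMIs and no Ptprc UMI, and its stricter forms, held no kept cells. Only the 18 kept barcodes with fewer keratin UMIs and no Ptprc UMI were left. Removed barcodes were not part of these counts. The planned comparison of tumor cells therefore gave no value, and the collagen gate was added after this was seen. Classes were compared within libraries, and so paired by library. No paired analysis was possible because no label ties library numbers to samples, and this concerns EZH2i against vehicle only.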
